A study of Homo sapiens with 9 samples.

Results

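The 4 human ID genes, ID1, ID2, ID3 and ID4, were examined for intervals called in RBPJ CUT&Tag and in ATAC-seq. An interval was a member when it overlapped the RefSeq span of one of these genes or the 20 kb on either side of it, and 71 of the 174116 intervals in 6 peak lists did. ID proteins are helix-loop-helix proteins without a basic DNA-binding region. They pair with the E proteins, which are basic helix-loop-helix transcription factors, and keep them off DNA, and they are best known as targets of BMP-SMAD signalling that hold back differentiation. RBPJ binds DNA for the Notch pathway. FBXO42 belongs to the F-box proteins, which bring substrates to a ubiquitin ligase.

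By their labels the lists came from 2 human cell lines, with 1 library per group. Every difference below is therefore between 2 libraries and carries no test. RBPJ antibody was used in HEK293T, a line of embryonic kidney origin, in 4 libraries: FBXO42 KO, FBXO42 WT, one titled RBPJK175R and one titled RBPJ. The libraries titled RBPJK175R and RBPJ both carry the genotype label FBXO42 KO, and the sources used here do not give how either form of RBPJ was brought into the cells. ATAC-seq, in which a transposase cuts open chromatin, was done in cells labelled Jurkat, a leukaemic T cell line, with FBXO42 KO and with FBXO42 WT. The knockouts were made with lentiviral CRISPR constructs, and the sources used here do not say whether they were single clones.

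The lists held between 19913 and 42656 intervals, with a median summit pileup of 8 to 17 reads. Pileup means the reads stacked at the highest point of an interval, the summit. The depth, estimated from the lists, was 83.7% in FBXO42 KO relative to FBXO42 WT for RBPJ, 55.0% in RBPJK175R relative to titled RBPJ and 42.3% in FBXO42 KO relative to FBXO42 WT for ATAC. To set pileups of different libraries side by side, each was divided by the genome background of its list, which was 1.63 reads in FBXO42 KO, 1.77 in FBXO42 WT, 0.675 in RBPJK175R and 1.26 in titled RBPJ for CUT&Tag, and 0.184 in FBXO42 KO and 0.417 in FBXO42 WT for ATAC. Of 12 T cell markers, 2 had an interval over the gene or the 1 kb around it in each ATAC list. They were CD3D and RAG1 in FBXO42 KO and ZAP70 and RAG1 in FBXO42 WT. All the other T cell markers, among them CD2, CD3E and CD28, had none in either. In the RBPJ lists 2 to 4 of the 12 had one, with LCK in all 4 lists. Of 8 B cell and myeloid markers 3 had one in each ATAC list and 4 to 5 in the RBPJ lists. Of 8 kidney and epithelial markers 4 had one in the FBXO42 KO ATAC list and 5 in the FBXO42 WT ATAC list. In the RBPJ lists this number was between 3 and 5. PAX2 and SIX2 had an interval in all 4 RBPJ lists and also in both ATAC lists. The share of all protein-coding genes with an interval by this 1 kb rule was not counted, so these numbers cannot be called high or low. The marker counts do not bear out the Jurkat label of the ATAC lists, and cell lines are named below by label only. The part of this marker pattern in the ATAC results below was not tested.

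The 250 bases before each RefSeq start (build GRCh38.p14) are shown because RBPJ intervals covered all of them in every RBPJ list, except those of ID2 in RBPJK175R. They are written 5′ to 3′ on the strand of the gene, and capitals mark CANNTG, the E-box that E proteins bind, and TATAAA, the TATA box.
ID1, chr20:31605039-31605288, plus strand: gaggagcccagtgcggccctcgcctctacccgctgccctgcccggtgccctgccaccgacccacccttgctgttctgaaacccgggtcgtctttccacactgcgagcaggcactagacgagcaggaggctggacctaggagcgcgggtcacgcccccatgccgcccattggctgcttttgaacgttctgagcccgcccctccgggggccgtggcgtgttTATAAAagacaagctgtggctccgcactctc
ID2, chr2:8681806-8682055, plus strand: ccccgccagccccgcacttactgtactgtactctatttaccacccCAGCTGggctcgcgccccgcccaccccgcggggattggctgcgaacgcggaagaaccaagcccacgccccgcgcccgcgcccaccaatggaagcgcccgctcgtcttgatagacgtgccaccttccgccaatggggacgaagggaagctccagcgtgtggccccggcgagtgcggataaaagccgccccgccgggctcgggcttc
ID3, chr1:23559502-23559751, minus strand: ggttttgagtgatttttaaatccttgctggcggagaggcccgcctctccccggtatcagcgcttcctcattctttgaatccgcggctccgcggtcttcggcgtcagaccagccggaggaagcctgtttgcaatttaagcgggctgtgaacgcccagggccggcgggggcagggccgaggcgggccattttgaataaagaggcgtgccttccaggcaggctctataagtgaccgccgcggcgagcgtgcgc
ID4, chr6:19837120-19837369, plus strand: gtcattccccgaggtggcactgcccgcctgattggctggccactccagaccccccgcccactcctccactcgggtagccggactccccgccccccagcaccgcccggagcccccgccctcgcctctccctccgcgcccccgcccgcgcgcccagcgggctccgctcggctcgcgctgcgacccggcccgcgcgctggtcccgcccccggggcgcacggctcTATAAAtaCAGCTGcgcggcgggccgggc
Counted from the start, an E-box began at base -205 of ID2 and at base -21 of ID4, and TATAAA began at base -31 of ID1 and base -29 of ID4. Over windows from 250 bases before to 50 bases after the start, CANNTG was present in 2 of the 4 ID genes and in 64.5% of 15843 protein-coding promoters. TATAAA was searched on the strand of the gene in the 250 bases before the start, after the sequences had been seen, and was present in 2 of the 4 and in 6.66% of all. TGGGAA, the core of the RBPJ motif, and GGCGCC, a SMAD motif, were likewise searched on both strands and had no match in the 4 windows, against 22.7% and 25.2% of all promoters. CANNTG was also searched on both strands, where it reads the same. The main RBPJ summits of ID1 and ID2 described below, and that well before the start of ID3, lay outside these windows. At ID4 the FBXO42 KO summit, at base -235, lay inside, and those of the other RBPJ lists did not. The sequence under summits outside the windows was not searched.

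All 4 ID genes had intervals in every list. ID1 lies on chromosome 20 from 31605289 to 31606510, ID2 on chromosome 2 from 8682056 to 8684461, ID3 on chromosome 1 from 23557926 to 23559501 and ID4 on chromosome 6 from 19837370 to 19842197. No other protein-coding gene reaches into these windows. Among all protein-coding genes the window held an interval for 64.5% of 20037 genes in FBXO42 KO RBPJ, 76.0% in FBXO42 WT RBPJ, 63.4% in RBPJK175R, 64.1% in titled RBPJ, 70.7% in FBXO42 KO ATAC and 81.0% in FBXO42 WT ATAC. An interval in all 6 lists was found for 43.5% of genes. The ID windows held 14 intervals in FBXO42 KO RBPJ, 12 in FBXO42 WT RBPJ, 14 in RBPJK175R, 17 in titled RBPJ and 7 in each ATAC list. ID3 had most of them, 26, followed by ID1 with 18, ID2 with 16 and ID4 with 11.

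**Figure D1:**
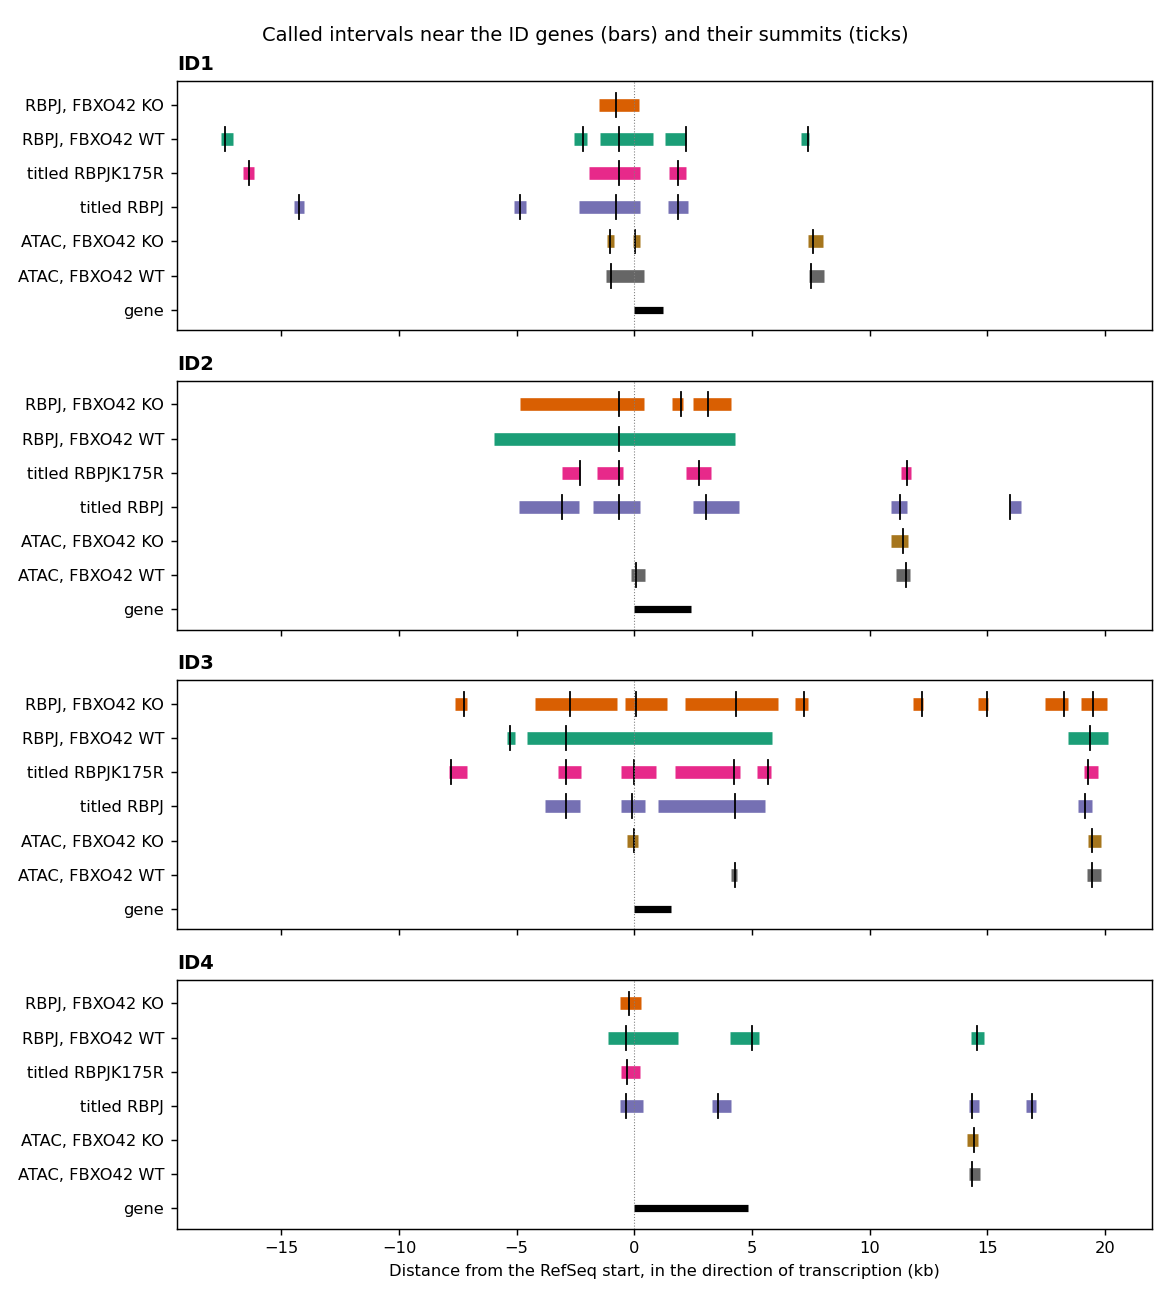
Called intervals (bars) and their summits (ticks) in the window of each ID gene, by distance from the RefSeq start in kb in the direction of transcription, with 1 row per list and the gene span in black. The widest bars, 10217 bp at ID2 and 10394 bp at ID3, are both in the FBXO42 WT RBPJ row, and the stretches under them are split into several bars in the other RBPJ rows.

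RBPJ intervals lay over the kilobase before the start of all 4 ID genes in all 4 RBPJ lists, which was the case for 17.6% of 15842 protein-coding starts. Summits that lay within 500 bp of the next were taken as 1 position, a distance chosen after the values had been seen, and the 71 intervals then fell into 34 positions. Of these, 22 had a summit from a single list, although some of them lay inside called intervals of other lists, as at the ID1 start. Summits from all 4 RBPJ lists met at 5 positions: 1 each at ID1, ID2 and ID4, close to the start, and 2 at ID3. Such a position was present in the windows of 30.9% of protein-coding genes. The summits of the 4 RBPJ lists spread over 17 bp at ID2, 104 bp at ID4, 150 bp at ID1, and 152 and 348 bp at the 2 positions of ID3.

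At ID1 the 4 RBPJ summits lay at base -801 from the start in FBXO42 KO, -651 in FBXO42 WT, -668 in RBPJK175R and -798 in titled RBPJ. Their pileups were 54 reads in FBXO42 KO, 140 in FBXO42 WT, 75 in RBPJK175R and 137 in titled RBPJ. The authors' fold, the ratio of pileup to local background after 1 read is added to each, was 13.2, 37.1, 12.8 and 9.35 in the same order, and it ranks intervals within a list only. By that rank the FBXO42 WT interval was in the top 0.964% of its list and the titled RBPJ interval in the top 12.2% of its own. A second RBPJ position behind the gene, 2.01 kb from the start, had 22 reads in FBXO42 WT, 10 in RBPJK175R and 23 in titled RBPJ, and none was called there in FBXO42 KO. The other RBPJ intervals at ID1, between 17.4 kb before and 7.39 kb after the start, had 6 to 18 reads and each summit came from 1 RBPJ list.

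ID2 carried the highest RBPJ pileup of the family in FBXO42 KO and FBXO42 WT, and ID1 in RBPJK175R and titled RBPJ. In RBPJK175R and titled RBPJ the highest pileups of ID1 and ID2 differed by less than counting error. They were 75 reads (95% interval 59.0 to 94.0) and 64 (49.3 to 81.7) in RBPJK175R. In titled RBPJ they were 137 (115 to 162) and 133 (111 to 158). The main ID2 summit, at base -645 to -662 from the start, lies within the span of ID2-AS1, a long non-coding RNA gene. That span, from 8670984 to 8681863, does not reach the ID2 start. There the pileup was 105 reads in FBXO42 KO, 328 in FBXO42 WT, 62 in RBPJK175R and 124 in titled RBPJ. A second strong summit behind the gene, 2.94 kb from the start, had 87 reads in FBXO42 KO, 64 in RBPJK175R and 133 in titled RBPJ. In FBXO42 WT both places were inside 1 interval of 10217 bp, which reports a single summit, so no FBXO42 WT pileup is known for the one behind the gene. The RBPJK175R interval ended at base -480 and covered none of the 250 bases shown for ID2, all of which were covered in the other 3 RBPJ lists. Further before the start, titled RBPJ had a summit of 54 reads at base -3068 and RBPJK175R one of 17 reads at base -2331, both inside the wide FBXO42 KO and FBXO42 WT intervals. The remaining RBPJ intervals of ID2, 1 in FBXO42 KO within the gene, 1 in RBPJK175R and 2 in titled RBPJ behind it, had 5 to 18 reads.

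ID3 had RBPJ summits on both sides of the gene. The position 2.83 kb before the start had 50 reads in FBXO42 KO, 174 in FBXO42 WT, 32 in RBPJK175R and 59 in titled RBPJ. At the start itself there were 63 reads in FBXO42 KO, 20 in RBPJK175R and 43 in titled RBPJ. Behind the gene, 4.28 kb from the start, there were 68 reads in FBXO42 KO, 38 in RBPJK175R and 41 in titled RBPJ. One FBXO42 WT interval of 10394 bp covered all 3 places, with its summit at the first. The position 19.33 kb behind the start lay near the edge of the window and was held by all 6 lists, with 28, 20, 18 and 22 reads in the RBPJ lists in the same order. Long non-coding RNA genes, among them LOC124903876, span much of this window.

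ID4 had 1 strong RBPJ position, 0.29 kb before the start. Its pileup was 40 reads in FBXO42 KO, 127 in FBXO42 WT, 19 in RBPJK175R and 79 in titled RBPJ. Outside it, FBXO42 WT and titled RBPJ had weak intervals of 12 to 20 reads, while FBXO42 KO and RBPJK175R had none. ID4 had the fewest positions of the 4 genes, 5 against 8 to 12.

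**Figure D2:**
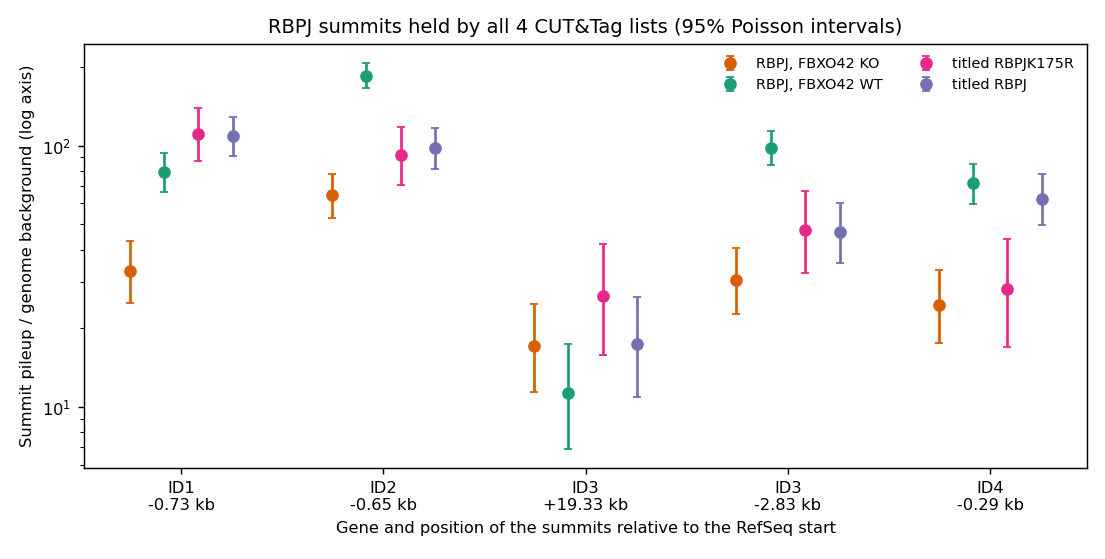
Summit pileup divided by the genome background of its list (log axis) at the 5 positions that all 4 RBPJ lists held, with 95% Poisson intervals for counting error. FBXO42 KO lies below FBXO42 WT at 4 of the 5 positions, and RBPJK175R lies apart from titled RBPJ at ID4, 28.1 against 62.5.

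In FBXO42 KO the RBPJ summits close to the starts of ID1, ID2 and ID4, and the one 2.83 kb before the start of ID3, were lower than in FBXO42 WT by more than counting error. The summit at the ID3 start itself had no FBXO42 WT summit to be compared with. The called interval over the start was shorter in FBXO42 KO at all 4 genes. At ID1 the summit stood 33.1 times above the genome background in FBXO42 KO and 79.1 times in FBXO42 WT, a ratio of 0.419 (95% interval 0.300 to 0.577). At ID2 the values were 64.4 and 185, a ratio of 0.348 (0.276 to 0.434). At ID3, 2.83 kb before the start, they were 30.7 and 98.2, a ratio of 0.312 (0.223 to 0.430), and at ID4 24.5 and 71.7, a ratio of 0.342 (0.233 to 0.491). The far position of ID3 had 17.2 in FBXO42 KO and 11.3 in FBXO42 WT, and its ratio of 1.52 had an interval that includes 1 (0.826 to 2.85). All intervals cover counting error only.

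Lower summits in FBXO42 KO were the rule across the genome. Among 11563 pairs of summits within 500 bp of each other, 73.8% had a ratio below 1 and the median was 0.706. Among the 1350 pairs with at least the 127 reads in FBXO42 WT that ID4 had, a choice by FBXO42 WT pileup that favours low ratios, the median was 0.510, the lower quartile 0.416, and 10% of pairs lay below 0.338. The 4 ID positions had a median of 0.345. ID3 was below 0.338, ID2 and ID4 were between that value and the lower quartile, and ID1 was just above the quartile. Relative to genome background, the FBXO42 KO library was also lower than the titled RBPJ library at 5 of 8 positions by more than counting error. Both libraries carry the FBXO42 KO label. The ratio was 0.306 (0.219 to 0.422) at ID1, 0.657 (0.502 to 0.859) before the start of ID2 and 0.507 (0.383 to 0.670) behind it, and 0.393 (0.262 to 0.582) at ID4. At ID3 it was 0.657 (0.442 to 0.975) 2.83 kb before the start, and the other 3 positions had intervals that include 1, with ratios of 1.14 at the start, 1.29 at 4.28 kb and 0.987 at 19.33 kb behind it. The median over 8338 pairs was 0.716. The direction depends on the background used. By the authors' fold over local background, FBXO42 KO was higher at ID1, 13.2 against 9.35 in titled RBPJ. The same held at ID2, 26.7 against 7.26 before the start and 13.1 against 7.27 behind the gene. At ID3, 2.83 kb before the start, the folds were 17.4 and 16.3, and at ID4 FBXO42 KO was lower, 11.5 against 21.7. Local background in titled RBPJ was 13.5 reads at ID1 and 16.0 and 17.2 at ID2. The part of genotype and of differences between libraries in these ratios cannot be told apart.

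The called interval at the start was 1705 bp in FBXO42 KO and 2255 bp in FBXO42 WT at ID1, 5268 and 10217 bp at ID2, 1774 and 10394 bp at ID3, and 896 and 2991 bp at ID4. It was wider in FBXO42 WT at all 4 genes, as at 76.5% of the 4925 starts with one in both lists. Intervals of 10 kb or more were rare, 8 in the FBXO42 KO list and 48 in the FBXO42 WT list, and the windows of 0.479% of protein-coding genes held one in FBXO42 WT, ID2 and ID3 among them. That width limit was set after the ID intervals had been seen. Total coverage did not follow the width at ID3, where the intervals covered 31.9% of the window in FBXO42 KO and 29.9% in FBXO42 WT, with 9 and 3 intervals. At ID1 coverage was 4.14% in FBXO42 KO and 11.0% in FBXO42 WT, and at ID2 17.3% and 24.1%.

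Joined wherever they overlapped by at least 1 bp, the intervals of FBXO42 KO and FBXO42 WT formed 17 sites in the ID windows: 5 in both lists, 5 in FBXO42 KO alone and 7 in FBXO42 WT alone. Around all protein-coding genes 21.9% of 54897 sites were in both lists, 35.5% in FBXO42 KO alone and 42.5% in FBXO42 WT alone. The 5 sites in FBXO42 KO alone were all at ID3, with 10 to 16 reads. The one with 16 reads directly adjoined a FBXO42 WT interval without overlapping it. The 7 in FBXO42 WT alone were 4 at ID1, 1 at ID3 and 2 at ID4, with 14 to 22 reads. The site at each start was in both lists.

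**Figure D3:**
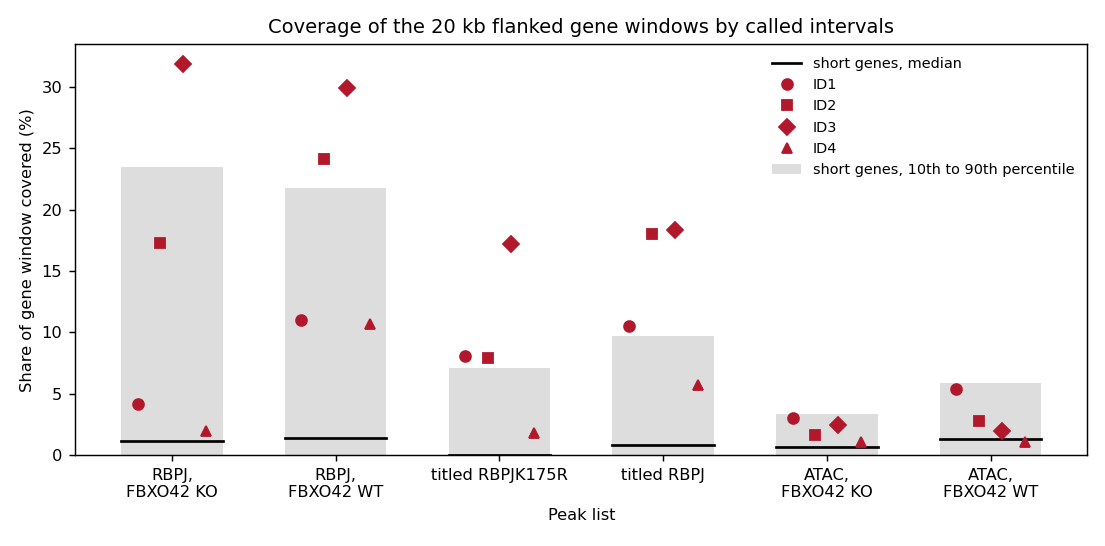
Share of each ID gene window covered by called intervals, in percent, by list (red symbols), with the 10th to 90th percentile (grey bars) and median (lines) of 3106 protein-coding genes with a span no longer than that of ID4. ID3 lies above the grey bar in all 4 RBPJ lists. ID1 and ID2 lie above it in RBPJK175R and titled RBPJ, and ID2 also in FBXO42 WT RBPJ. All 4 genes lie within it in both ATAC lists.

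Between RBPJK175R and titled RBPJ, the ID4 summit was lower in RBPJK175R and 1 ID3 summit was higher, while the other ID summits differed by less than counting error. At ID1 the summit stood 111 times above the genome background in RBPJK175R and 108 times in titled RBPJ, a ratio of 1.03 (0.764 to 1.37). At ID2 it was 91.9 and 98.0 before the start, a ratio of 0.937 (0.679 to 1.28), and 94.8 and 105 behind the gene, a ratio of 0.902 (0.659 to 1.22). At ID3 the ratio was 1.02 (0.640 to 1.59) 2.83 kb before the start, 0.872 (0.486 to 1.51) at the start and 1.74 (1.09 to 2.77) 4.28 kb behind it. At ID4 the values were 28.1 in RBPJK175R and 62.5 in titled RBPJ, a ratio of 0.451 (0.258 to 0.751). Of the 10 positions with a summit in both lists, 1 had an interval wholly below 1 and 1 wholly above 1. The intervals that include 1 do not show equal pileups.

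Over the genome, 48.5% of 7680 summit pairs had a ratio below 1, with a median of 1.01. Among the 1724 pairs with at least 59 reads in titled RBPJ the median was 0.861 and 10% of pairs lay below 0.554, as ID4 did. A choice by titled RBPJ pileup favours low ratios. The start interval was wider in titled RBPJ at ID1, with 2165 bp in RBPJK175R and 2603 bp in titled RBPJ, at ID2, with 1103 and 1987 bp, and at ID4, with 803 and 963 bp. At ID3 it was wider in RBPJK175R, 1468 bp against 1041 bp in titled RBPJ. Titled RBPJ was the wider at 72.4% of 3286 starts.

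The 2 lists formed 19 sites in the ID windows, with 11 in both, 2 in RBPJK175R alone and 6 in titled RBPJ alone. Around all protein-coding genes 27.3% of 27983 sites were in both, 38.6% in RBPJK175R alone and 34.1% in titled RBPJ alone. The 2 in RBPJK175R alone were 16.38 kb before ID1, with 6 reads, and at base -7775 from the ID3 start, with 7 reads. Those in titled RBPJ alone were 2 before ID1, 1 behind ID2 and 3 at ID4, with 10 to 17 reads. Of the 4 ID4 sites, the one at the start was in both lists.

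**Figure D4:**
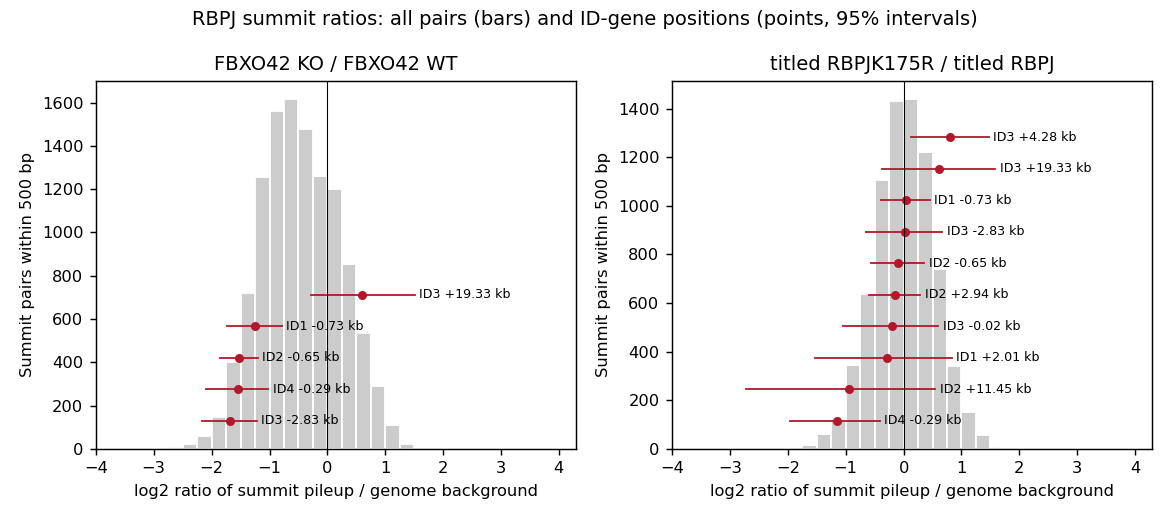
Log2 ratio of summit pileup over genome background for all RBPJ summit pairs within 500 bp (grey bars, number of pairs) and for the ID positions (points with 95% intervals), for FBXO42 KO over FBXO42 WT on the left and titled RBPJK175R over titled RBPJ on the right. The positions before the starts of the 4 genes lie left of 0 on the left panel, and ID4 is the lowest on the right panel.

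In the ATAC lists the ID genes differed in whether the start was covered. The ID1 start was covered in both lists, by an interval with 19 reads in FBXO42 KO and by one of 1599 bp with 35 reads in FBXO42 WT. The ID2 start was covered in FBXO42 WT alone, with 42 reads, and the ID3 start in FBXO42 KO alone, with 13 reads. Of 15842 protein-coding starts, 1.57% were covered in FBXO42 KO alone and 12.9% in FBXO42 WT alone. The ID4 start was in neither list, although it had an RBPJ interval in all 4 CUT&Tag lists, which are labelled as the other cell line. Of the 2791 starts with RBPJ intervals in all 4 lists, 17.8% were like ID4 in this respect. The ID3 interval in FBXO42 KO had a −log10 q of 3.58, and a list does not say how many reads lie where no interval was called.

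Each ID gene had 1 ATAC position away from the start that both lists held. These lay behind the genes: 7.39 kb from the start of ID1, with 10 reads in FBXO42 KO and 17 in FBXO42 WT, 11.45 kb at ID2, with 11 and 28, 19.33 kb at ID3, with 8 and 30, and 14.45 kb at ID4, with 5 and 16. All 4 positions also held an RBPJ summit in lists labelled HEK293T, in 1 RBPJ list at ID1, 2 at ID2 and ID4 and 4 at ID3. RBPJ pileups there were low, 5 to 28 reads. How often ATAC positions elsewhere in the genome have an RBPJ summit this close was not counted, so this is not shown to be particular to the ID genes. Relative to the genome background, the ATAC ratio of FBXO42 KO to FBXO42 WT was between 0.604 and 1.33 over these 4 and the position before the ID1 start, and every 95% interval included 1. The median over 12431 pairs was 1.18. One more position, 4.28 kb behind the ID3 start, had 21 ATAC reads in FBXO42 WT and none called in FBXO42 KO, and its summit was within 49 bp of those of 3 RBPJ lists.

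The ATAC intervals formed 8 sites in the ID windows: 5 in both lists, 1 in FBXO42 KO alone and 2 in FBXO42 WT alone. Around all protein-coding genes 36.5% of 30720 sites were in both, 15.5% in FBXO42 KO alone and 48.0% in FBXO42 WT alone.

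Among genes that act with the ID proteins, 3 gene lists were counted in the same way. From each gene list, the 3 genes with the highest fold in FBXO42 WT are named with reads. That choice favours lower values in the other peak lists. These reads were not divided by genome background, so they do not rank libraries. The highest-fold interval was taken in each peak list, so the places may differ. Of 18 genes for E proteins and the tissue-specific factors that pair with them, 9 had an interval within 20 kb in FBXO42 KO. This number was 11 in FBXO42 WT, 8 in RBPJK175R and 11 in titled RBPJ. The shares of all protein-coding genes were 64.5% in FBXO42 KO, 76.0% in FBXO42 WT, 63.4% in RBPJK175R and 64.1% in titled RBPJ. An interval in all 4 lists was found for 5 of the 18, against 48.1% of all protein-coding genes. TCF3, which encodes E proteins, had the highest fold of the list in FBXO42 WT. It had 60 reads at its highest-fold interval in FBXO42 KO, 120 in FBXO42 WT, 13 in RBPJK175R and 24 in titled RBPJ. HAND1, a heart and placenta factor, and OLIG2, a glial one, had 15 and 28 reads in FBXO42 KO and 36 and 65 in FBXO42 WT. In FBXO42 KO alone were 4 genes, TAL1, MYOG, HAND2 and NEUROG1, with folds of 3.12 to 4.22, and in FBXO42 WT alone 6, led by TWIST1, TCF12, NEUROD1 and ATOH1, with folds up to 4.65. Of all protein-coding genes, 3.67% were in FBXO42 KO alone and 15.2% in FBXO42 WT alone. In RBPJK175R alone was TCF12, and in titled RBPJ alone were MYOG, NEUROD1, ATOH1 and TAL1, against 9.05% and 9.73% of all genes. In ATAC, MYOG was in FBXO42 KO alone and 5 genes were in FBXO42 WT alone, among them NEUROD1, HAND2, TWIST1 and LYL1, against 2.37% and 12.7% of all genes.

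BMP-SMAD genes encode receptors, messengers and inhibitors of this signal. An interval was present for 8 of 12 in FBXO42 KO, 11 in FBXO42 WT, 8 in RBPJK175R and 12 in titled RBPJ. The shares of all protein-coding genes were 64.5%, 76.0%, 63.4% and 64.1% in that order. SMAD7, SMAD9 and BAMBI had the highest folds of these genes in FBXO42 WT, a choice that favours lower values in FBXO42 KO. SMAD7, which encodes an inhibitor of the pathway, had 13 reads at its highest-fold interval in FBXO42 KO and 56 in FBXO42 WT. SMAD9, a BMP-specific messenger, had 9 and 34. BAMBI, a decoy receptor, had an interval in no FBXO42 KO window and 54 reads in FBXO42 WT, and none in RBPJK175R and 16 reads in titled RBPJ. ACVRL1 was in FBXO42 KO alone, and SMAD4, BMPR1B and ACVR1 were with BAMBI in FBXO42 WT alone. Of all protein-coding genes, 3.67% and 15.2% were so. In titled RBPJ alone were BAMBI, ACVRL1, BMPR1B and SMAD4, with 12 to 16 reads, against 9.73% of all genes. All 12 genes had an ATAC interval in FBXO42 WT and 9 did in FBXO42 KO, without SMAD7, SMAD5 and BAMBI. Of all protein-coding genes, 81.0% had one in FBXO42 WT, 70.7% in FBXO42 KO and 12.7% in FBXO42 WT alone.

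Of 10 other partners and effectors of ID proteins, 9 had an RBPJ interval in FBXO42 KO and all 10 in FBXO42 WT. The shares of all protein-coding genes were 64.5% and 76.0%. ELK3, an ETS factor, was in FBXO42 WT alone, as were 15.2% of all genes. RBPJK175R had 8 and titled RBPJ had 10, against 63.4% and 64.1% of all genes. RB1, the retinoblastoma gene, and ELK3 were in titled RBPJ alone, as were 9.73% of all genes. CDKN2A, a cell cycle inhibitor gene, had the highest fold of these in FBXO42 WT, with 88 reads in FBXO42 KO, 238 in FBXO42 WT, 16 in RBPJK175R and 52 in titled RBPJ. RBL2, a relative of RB1, had 169, 314, 69 and 194 reads in that order, and GATA4, a heart factor, had 35, 77, 10 and 44. In ATAC, RB1 and ELK3 were in FBXO42 WT alone, as were 12.7% of all genes.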

How the data were processed

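Peak lists of 6 libraries were analysed: 4 of RBPJ CUT&Tag labelled HEK293T and 2 of ATAC-seq labelled Jurkat. Values from 3 IgG libraries were not analysed here. Trim Galore, Bowtie2, MACS2 and deepTools were used on build hg38, per the submitters' processing notes; the sources used here give no versions, settings or controls. Each library had its own deposited list. The deposited columns hold a score, a fold that is the ratio of summit pileup to local background after 1 is added to each, which lowers it where background is low, a −log10 p-value and a −log10 q-value.

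Intervals outside the assembled nuclear chromosomes were left out. Whole-number pileups were recovered from the authors' fold and −log10 p under a Poisson model, in titled RBPJ after a scale of 0.812. The −log10 p computed from them was within 0.1% of the deposited value for 100% of intervals. That is not an error of the pileup itself. The recovery was tested on simulated data. Genome background is the most frequent local background, and depth is that value divided by the shortest interval. A read total is not stated. Intervals for pileups and ratios are exact 95% Poisson and binomial ones. Gene positions and promoter sequences are from RefSeq GRCh38.p14; 15842 of 20037 protein-coding genes had a start there. Python 3.11.15 with scipy 1.17.1 was used.

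Comparisons had 1 library per group, so no test was made. Alternatives were windows of 5 and 50 kb, a reciprocal overlap of 50%, −log10 q limits of 5 and 10, and depth scaling. From each gene list the 3 genes with the highest fold in FBXO42 WT RBPJ and up to 4 genes in 1 list of a comparison only are named. The ID genes and gene lists were chosen with earlier results of these data known.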

Additional observations from a re-analysis of the deposited data

How the results depend on the processing

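Site counts in the ID windows are given as sites in both lists, in the first group alone and in the second alone, and moved with the settings as follows. For FBXO42 KO against FBXO42 WT in RBPJ, 5, 5 and 7 became 4, 0 and 3 with 5 kb on each side of the gene, 10, 11 and 11 with 50 kb, 3, 11 and 9 with a reciprocal overlap of 50%, 5, 1 and 5 with a −log10 q of at least 5, and 4, 1 and 0 with at least 10. For RBPJK175R against titled RBPJ, 11, 2 and 6 became 9, 0 and 2 with 5 kb, 15, 3 and 9 with 50 kb, 8, 6 and 9 with the reciprocal overlap, 8, 0 and 4 at a −log10 q of 5 and 7, 1 and 1 at 10. For FBXO42 KO against FBXO42 WT in ATAC, 5, 1 and 2 became 1, 1 and 2 with 5 kb, 7, 3 and 8 with 50 kb, 4, 3 and 3 with the reciprocal overlap, 3, 0 and 4 at a −log10 q of 5 and 0, 0 and 6 at 10. Keeping only intervals of the deeper list whose scaled pileup reached the lowest pileup of the other list removed no site. That lowest pileup is a lenient limit, since calls also depend on local background, so this does not show that the counts are free of depth. The FBXO42 KO ATAC list held intervals at 2 of the 4 genes with 5 kb, at 2 with a −log10 q of at least 5 and at 0 with at least 10, and the FBXO42 WT ATAC list at 3 with 5 kb. The 4 RBPJ lists held all 4 genes under every window and −log10 q tried. The causes of these shifts were not tested. No paired analysis was possible because each group has 1 library.

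RBPJ sites found in 1 list had 6 to 22 reads, and the median summit held 8 reads in the FBXO42 KO ATAC list and 9 in RBPJK175R. A missing interval is not a measured absence.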
